A study of Homo sapiens with 8 samples.

Results

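Integrins are cell surface receptors made of 1 alpha and 1 beta chain, and laminins are basement membrane proteins made of 1 alpha, 1 beta and 1 gamma chain. The genes described here are 35 integrin and laminin chains, picked by gene symbol from the annotation of the array. The list was made with earlier results of these data known. Of these, 34 had a probe and LAMA3 had no probe under its symbol, so 34 of the 16578 genes named on the array, read by 40 probes, are described.

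RNA of the human medulloblastoma line DAOY, an established cell line, was read on 8 Illumina bead arrays, 1 for each sample. The groups were 5 stable lines carrying the plasmid pHM6-MXD3, 2 stable lines carrying the vector pHM6 alone and 1 sample of parental DAOY cells. Selection and culture of the stable lines used G418 at 800 µg/ml, a drug that the labels do not name for parental cells. The labels do not say whether a line was 1 clone or which promoter drove the transgene. P-values therefore measure the spread between these samples, and the number of arrays limits their precision.

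An alpha chain largely sets which ligand an integrin binds, and most alpha chains use only 1 or a few beta partners. ITGB1 serves many alpha chains, ITGAV serves several beta chains, and ITGB2 and ITGB7 are known from leukocytes. Laminin trimers are assembled inside the cell before secretion, and integrins together with dystroglycan bind them in the basement membrane. MXD3 pairs with MAX and represses genes through the E-box sequence CACGTG, and background knowledge of this kind is not a result of these arrays.

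The MXD3 probe read a log2 intensity of 7.47, 7.22, 6.98, 8.08 and 6.18 in MXD3 lines 1 to 5, against 6.93 and 6.71 in vector lines 1 and 2 and 6.59 in the parental cells. On the array labelled MXD3 line 5 this reading was lower than in each of the 3 controls, so results are also given without it. Over all MXD3 lines the log2 difference of this probe from the 3 controls was 0.44 ± 0.35 (SE, limma, adjusted p = 0.647). The groups overlapped, so this probe did not set the MXD3 lines apart from the controls. Whether the probe reads the transgene was not analysed here. Between 13432 and 14199 of 22184 probes were detected per array, where detected means a deposited detection p-value below 0.05. Of 15 medulloblastoma and neural precursor markers with a probe, 8 were detected on all 8 arrays, among them GLI2, ZIC2, OTX2, SOX2 and TUBB3, and 6 on none, among them ATOH1, BARHL1, NES and SYP.

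Promoter windows show the DNA in front of ITGA11, ITGA2 and ITGA6. They were taken from RefSeq on GRCh38.p14 as 250 bases before the annotated start, and 25 of the 35 genes had an entry. The window of ITGA11, the collagen-binding chain whose MXD3 lines all lay above the controls, is shown first, with ITGA2, a related collagen-binding chain, after it. The upstream window of ITGA6, a chain whose groups overlapped, is shown as the only one of the genes' 32 windows to hold CACGTG. Capitals mark CACGTG and the GC box GGGCGG, searched on both strands, and all are written 5′ to 3′ on the gene's strand.
ITGA11 promoter, chr15:68432164-68432413, minus strand: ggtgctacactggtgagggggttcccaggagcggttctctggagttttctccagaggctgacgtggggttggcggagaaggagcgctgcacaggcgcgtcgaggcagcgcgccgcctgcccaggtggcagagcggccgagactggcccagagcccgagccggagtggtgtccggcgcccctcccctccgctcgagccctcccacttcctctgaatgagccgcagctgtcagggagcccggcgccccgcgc
ITGA2 promoter, chr5:52989102-52989351, plus strand: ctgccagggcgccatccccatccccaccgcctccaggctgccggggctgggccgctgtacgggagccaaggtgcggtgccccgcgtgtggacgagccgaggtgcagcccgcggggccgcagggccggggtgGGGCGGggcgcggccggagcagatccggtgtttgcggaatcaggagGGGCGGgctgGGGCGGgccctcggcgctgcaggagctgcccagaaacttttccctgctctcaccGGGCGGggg
ITGA6 upstream promoter, chr2:172427086-172427335, plus strand: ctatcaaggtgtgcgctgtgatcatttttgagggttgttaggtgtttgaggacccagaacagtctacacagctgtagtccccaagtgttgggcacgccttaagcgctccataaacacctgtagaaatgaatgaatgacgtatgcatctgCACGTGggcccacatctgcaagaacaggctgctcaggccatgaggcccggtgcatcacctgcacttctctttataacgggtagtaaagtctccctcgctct

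CACGTG was found in 1 of the 25 genes with an entry, or 3.1% of their 32 windows of 300 bases, which run 50 bases past the start, against 7.3% of all 35116 promoter windows. GGGCGG was found in 59.4% of the 32 windows against 45.0% of all windows. ITGA2 held 4 copies of GGGCGG before its start and ITGA11 none. A match describes these letters in this window and is not a binding site. ITGB2 and LAMC3, named further on, have no entry and are named only.

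Which chains were present was read first. Of the 34 genes with a probe, 20 were detected on all 8 arrays, 10 on some arrays and 4 on none, and single arrays detected 23 to 28 of them. Detected chains are described by pair or trimer, since intensities of different probes cannot be set against each other.

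**Figure D1:**
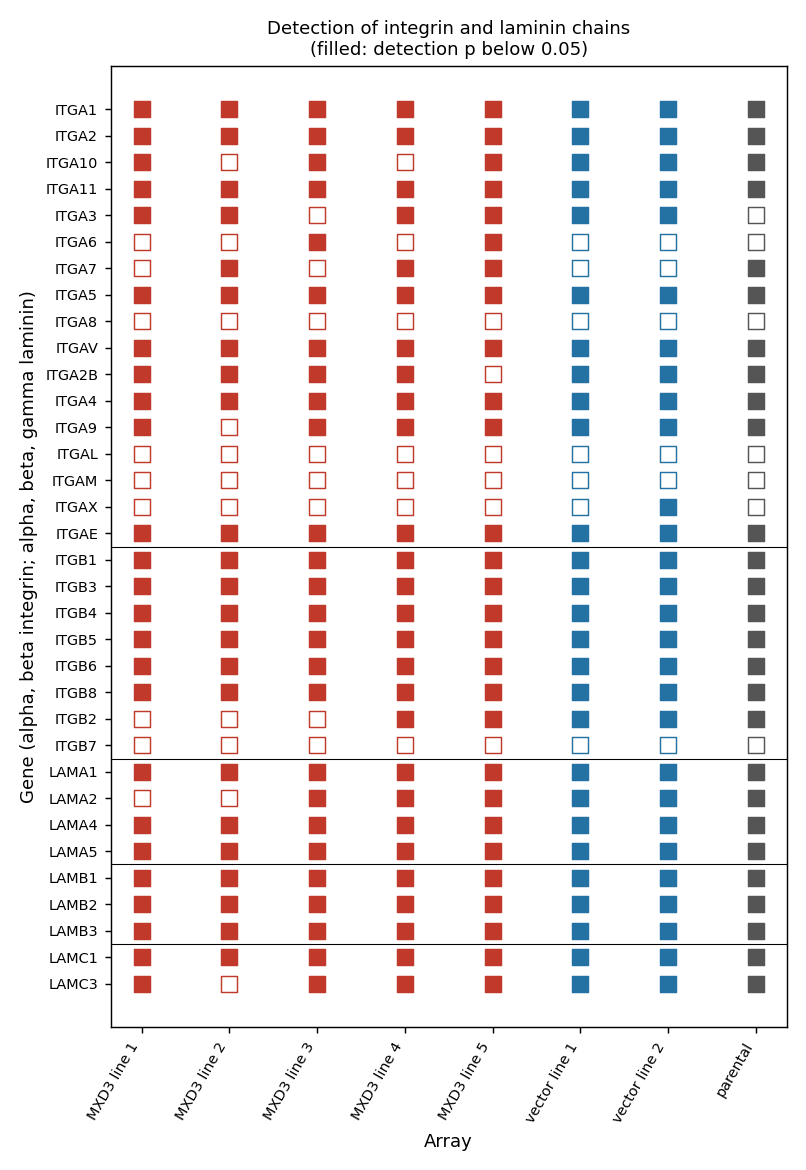
Detection of the 34 genes with a probe (rows) on the 8 arrays (columns, coloured by group). A filled square is a detection p-value below 0.05 and an open square is not; ITGA8, ITGAL, ITGAM and ITGB7 are open on all 8 arrays and 20 genes are filled on all 8.

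Among 24 known alpha-beta pairs, both chains were detected on all 8 arrays for 10, on some arrays for 9 and on none for 5. The 10 pairs used only ITGB1 or ITGAV as the shared partner. ITGB1 was joined by the collagen-binding chains ITGA1, ITGA2 and ITGA11, by ITGA4 and ITGA5, which bind fibronectin, and by ITGAV. ITGAV was also joined by ITGB3, ITGB5, ITGB6 and ITGB8, the beta chains of vitronectin-binding and TGF-beta-activating receptors. These arrays measure RNA, so they show which pairs could be made and not which were on the cell surface.

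The laminin-binding alpha chains ITGA3, ITGA6 and ITGA7 were read near the detection limit, each by 1 probe. A low reading of 1 probe does not show that a chain is absent. For ITGB1, 1 of 4 probes was detected on no array and another on all 8. ITGA3, the alpha chain that binds laminins of epithelial basement membranes, was detected in 4 of 5 MXD3 lines and both vector lines but not in parental cells. ITGA6, the chain shared by ITGB1 and ITGB4, was detected in 2 of 5 MXD3 lines, one of them the array labelled MXD3 line 5, and in none of the 3 controls. ITGA7, a laminin receptor chain of muscle, was detected in 3 of 5 MXD3 lines, in neither vector line and in the parental cells. ITGB4 itself, the partner of ITGA6 in hemidesmosomes, was detected on all 8 arrays by 1 of its 2 probes and on none by the other.

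ITGA6 read 5.32, 5.05, 5.86, 5.25 and 5.72 in MXD3 lines 1 to 5, against 5.37 and 5.08 in the vector lines and 5.13 in parental cells. The groups overlapped, and no fold is given, since the MXD3 mean was not above the lowest detected signal of the control arrays. ITGA3 read 5.87, 6.08, 5.07, 6.27 and 5.76 in the MXD3 lines, against 6.01 and 5.80 in the vector lines and 5.11 in parental cells. In the parental cells ITGA3 was below detection. The mean of the MXD3 lines was at least 1.12-fold higher, although MXD3 line 3, also below detection, read slightly under the parental array. The mean of the vector lines was at least 1.2-fold higher than the same array. Limma tested the measured log2 differences of 0.70 and 0.79 and not these bounds (adjusted p = 0.488 and 0.780).

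Chains known from leukocytes were mostly below detection. ITGAL, ITGAM and ITGB7 were detected on no array, as was ITGA8, a fibronectin and nephronectin receptor chain of the kidney, and ITGAX only in vector line 2. ITGAE, which pairs with ITGB7 on lymphocytes of epithelia, was detected on all 8 arrays, at 12.00, 11.49, 11.75, 11.60 and 11.87 in the MXD3 lines against 11.91 and 11.77 in the vector lines and 11.99 in parental cells. ITGAE therefore had no detected partner of its known pair, and its groups overlapped. Its span on chromosome 17 (GRCh38.p14, 3714628 to 3801188) also contains or overlaps the protein-coding genes HASPIN and P2RX5, and where in it the probe lies was not analysed.

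ITGB2, the beta chain of these leukocyte integrins, was detected in all 3 controls and in 2 of the 5 MXD3 lines. Its known alpha partners ITGAL and ITGAM were not detected with it. A pair with ITGAX was detected as RNA in vector line 2, and one with ITGAD, which is not among the 35 genes, in MXD3 line 4. Each of these alpha chains was detected on that 1 array only, and the detection p-value of ITGAX there was 0.0489, close to the threshold.

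Laminin chains covered most known trimers. Of 14 trimers, all chains were detected on all 8 arrays for 6, on some arrays for 5, and 3 held a chain without a probe. The 6 were laminins 111, 121, 411, 421, 511 and 521, named by their alpha, beta and gamma chain, and each contains LAMC1. The trimers 423 and 523, which contain LAMC3, had all chains detected on 7 arrays. In MXD3 line 2 LAMC3 was not called detected, at a detection p-value of 0.056, close to the threshold. The trimers of LAMA2, the chain of muscle and nerve basement membranes, had all chains detected on 6 arrays, 3 of the 5 MXD3 lines and all 3 controls. LAMB3, a beta chain of epithelial laminins, was detected on all 8 arrays by 1 of its 3 probes.

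MXD3 lines were first compared with vector and parental lines together, and 3 chains separated completely: ITGA11 lay above the controls (3.84% of all genes did), and ITGB2 and LAMC3 lay below them (4.14%). These 3 are 10.3% of the 29 measured genes, while 7.98% of all 12162 genes tested separated in either direction. A gene was measured if its probe was detected on at least 2 arrays. None of the 29 passed the threshold of 0.05 in limma's test with Benjamini-Hochberg adjustment over all genes, where 0% of all genes passed. At an unadjusted p under 0.05 there were 5 (17.2%, against 11.7% of all genes), ITGA11, ITGA2 and ITGB8 higher and ITGB2 and LAMC3 lower. Higher members were 10.3% (6.13% of all genes) and lower members 6.9% (5.57%).

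**Figure D2:**
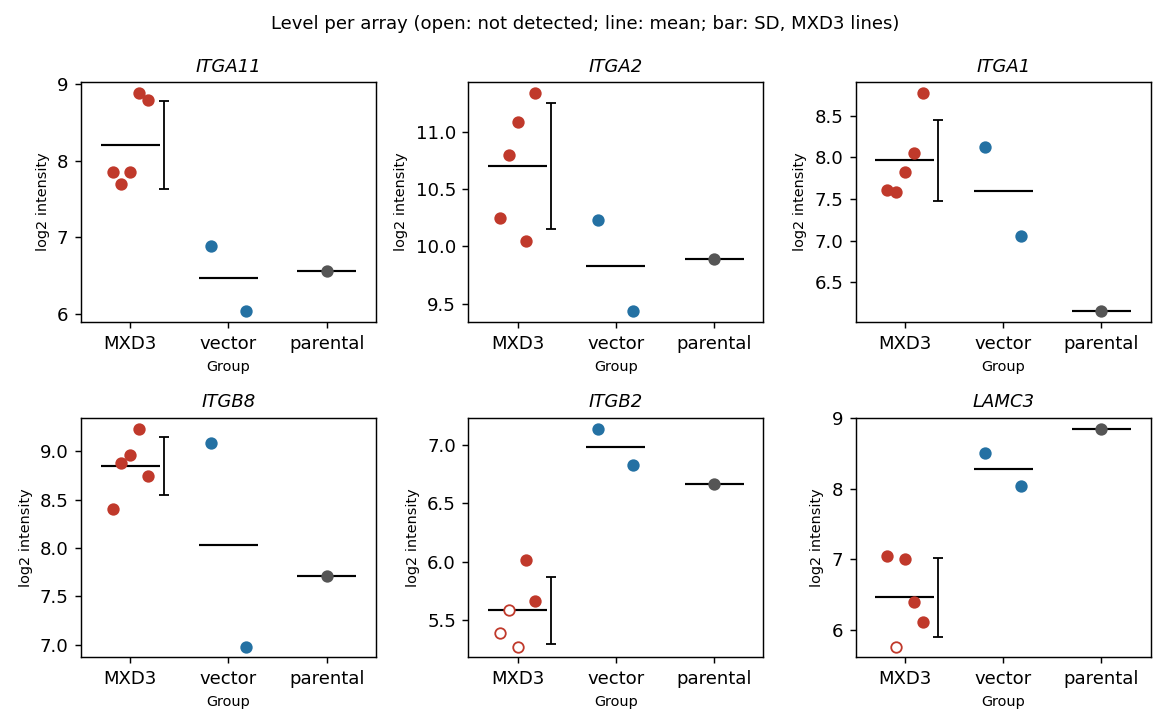
Log2 intensity of 6 chains per array, grouped as MXD3, vector and parental; filled points are detected, open points are not, lines are group means and the bar is the SD of the 5 MXD3 lines. All MXD3 points lie above the controls for ITGA11 and below them for ITGB2 and LAMC3, and the groups overlap for ITGA2, ITGA1 and ITGB8.

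ITGA11 (chromosome 15, 68296532 to 68432163, GRCh38.p14) encodes a collagen receptor chain of mesenchymal cells. It read 7.85, 7.69, 7.85, 8.88 and 8.79 in MXD3 lines 1 to 5, against 6.89 and 6.04 in the vector lines and 6.56 in parental cells. MXD3 line 4 and the array labelled MXD3 line 5 were about 1 log2 unit above the other MXD3 lines, and all 5 lay above every control. The mean was 8.21 ± 0.57 (SD, n = 5) in MXD3 lines against 6.496 ± 0.43 (SD, n = 3) in controls. The log2 difference was 1.72 ± 0.32 (SE), a 3.29-fold higher mean, with a limma unadjusted p = 0.000402 and adjusted p = 0.255. Without background correction this log2 difference was 0.93. Against the vector lines alone it was 1.75 ± 0.39 (limma, adjusted p = 0.587), and 0.94 without background correction.

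LAMC3 (chromosome 9, 131009174 to 131094473) encodes a gamma chain that replaces LAMC1 in some laminins of the brain and the eye. It read 7.04, 5.76, 7.00, 6.39 and 6.10 in the MXD3 lines, against 8.51 and 8.04 in the vector lines and 8.85 in parental cells. Every MXD3 line lay about 1 log2 unit or more below every control, and MXD3 line 2 was below detection. The mean was 6.46 ± 0.56 (SD, n = 5) in MXD3 lines against 8.47 ± 0.41 (SD, n = 3) in controls, a log2 difference of -2.01 ± 0.31 (SE). Limma gave an unadjusted p = 9.73e-05 and adjusted p = 0.247. Against the vector lines the log2 difference was -1.82 ± 0.36 (limma, adjusted p = 0.534), and against the parental array -2.39 ± 0.47 (limma, adjusted p = 0.157). Without background correction the 3 differences of LAMC3 were -1.10, -0.97 and -1.38.

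ITGB2 (chromosome 21, 44885953 to 44928815) read 5.39, 5.58, 5.27, 6.02 and 5.66 in the MXD3 lines, against 7.14 and 6.83 in the vector lines and 6.66 in parental cells. It was detected in MXD3 line 4, in the array labelled MXD3 line 5 and in all 3 controls, all at low intensity. The mean was 5.59 ± 0.29 (SD, n = 5) in MXD3 lines against 6.88 ± 0.24 (SD, n = 3) in controls. The log2 difference was -1.29 ± 0.19 (SE), with a limma unadjusted p = 5.59e-05 and adjusted p = 0.247. Against the vector lines it was -1.40 ± 0.21 (limma, adjusted p = 0.534). With 3 of 5 MXD3 lines below detection, the MXD3 mean lay under the lowest detected signal of every array, which ran from 5.625 to 5.815, so the size of these differences is not settled. Without background correction they were -0.48 and -0.53.

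Leukocyte markers were set beside ITGB2. Of 11 with a probe, LCP1 and CORO1A were detected on all 8 arrays, 5 on some and 4 (CD14, CD3D, TYROBP and FCER1G) on none. Their summed uncorrected intensity was 2208.3 to 6223.6 in the MXD3 lines and 2722.2 to 8319 in the controls, so the groups overlapped. LCP1 alone read 4407.5 in MXD3 line 5 and 6581.7 in vector line 2. The upper ends of these ranges are therefore mostly LCP1 and say little about the other markers. Of the 6 that passed the filter, CD3E and CD53 had a higher mean in MXD3 lines and PTPRC, LCP1, CORO1A and LAPTM5 a lower one, and none passed limma's adjusted threshold (smallest adjusted p = 0.346). CD3E, a T cell receptor chain, differed by 0.43 ± 0.15 (SE), with all MXD3 lines above all controls, as for 3.84% of all genes. It was the 1 marker of these 6 with an unadjusted p under 0.05, against 11.7% of all genes. PTPRC, the common leukocyte antigen, differed by -0.55 ± 0.25 (SE) and LCP1, a leukocyte actin bundler, by -0.92 ± 0.87 (SE), with overlapping groups. The control mean of CD3E and the MXD3 mean of PTPRC lay below the lowest detected signal of each array of their group, so the size of these 2 differences is not settled. All 8 samples were labelled as DAOY, an established cell line and not a mixed tissue. A part of other cells in the ITGB2 reading was not tested. In bulk RNA, fewer cells that express a gene and less RNA per cell cannot be told apart.

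ITGA2 and ITGA1 encode the other collagen-binding chains of adherent cells and lie 30.1 kb apart on chromosome 5 (GRCh38.p14). ITGA2 read 10.24, 10.80, 11.09, 10.05 and 11.34 in the MXD3 lines, against 10.23 and 9.43 in the vector lines and 9.89 in parental cells. MXD3 line 4 lay below vector line 1, so the groups overlapped. The log2 difference was 0.85 ± 0.31 (SE), with a limma unadjusted p = 0.0212 and adjusted p = 0.354. Against the vector lines it was 0.87 ± 0.37 (limma, adjusted p = 0.635), and 0.47 without vector line 2.

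ITGA1 read 7.61, 7.58, 7.82, 8.05 and 8.77 in the MXD3 lines, against 8.12 and 7.06 in the vector lines and 6.15 in parental cells. The parental cells were the lowest sample, and vector line 1 lay among the MXD3 lines. The log2 difference from the 3 controls was 0.86 ± 0.41 (SE, limma, adjusted p = 0.460). ITGA10, a collagen receptor chain of cartilage, was detected on 6 of the 8 arrays and not in MXD3 lines 2 and 4. It differed by -0.39 ± 0.19 (SE, limma, adjusted p = 0.462), near the detection limit. Its lower mean therefore does not settle whether the collagen-binding chains shared 1 direction. Of these 4 chains, 3 had higher means. Their median log2 difference was 0.85, against 0.004 over all genes tested, and from the vector lines alone it was 0.62. ITGA1 differed from the vector lines by 0.38 ± 0.37 (SE, limma, adjusted p = 0.823).

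ITGB8, which pairs with ITGAV and activates TGF-beta, was divided among the controls. It read 8.41, 8.88, 8.96, 9.23 and 8.74 in the MXD3 lines, against 9.09 and 6.98 in vector lines 1 and 2 and 7.71 in the parental cells. Vector line 1 lay inside the range of the MXD3 lines, while vector line 2 was 2.11 log2 units below it. The log2 difference of 0.92 ± 0.40 (SE, limma, adjusted p = 0.412) was 0.45 without vector line 2, 1.501 without vector line 1 and 0.59 without background correction.

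**Figure D3:**
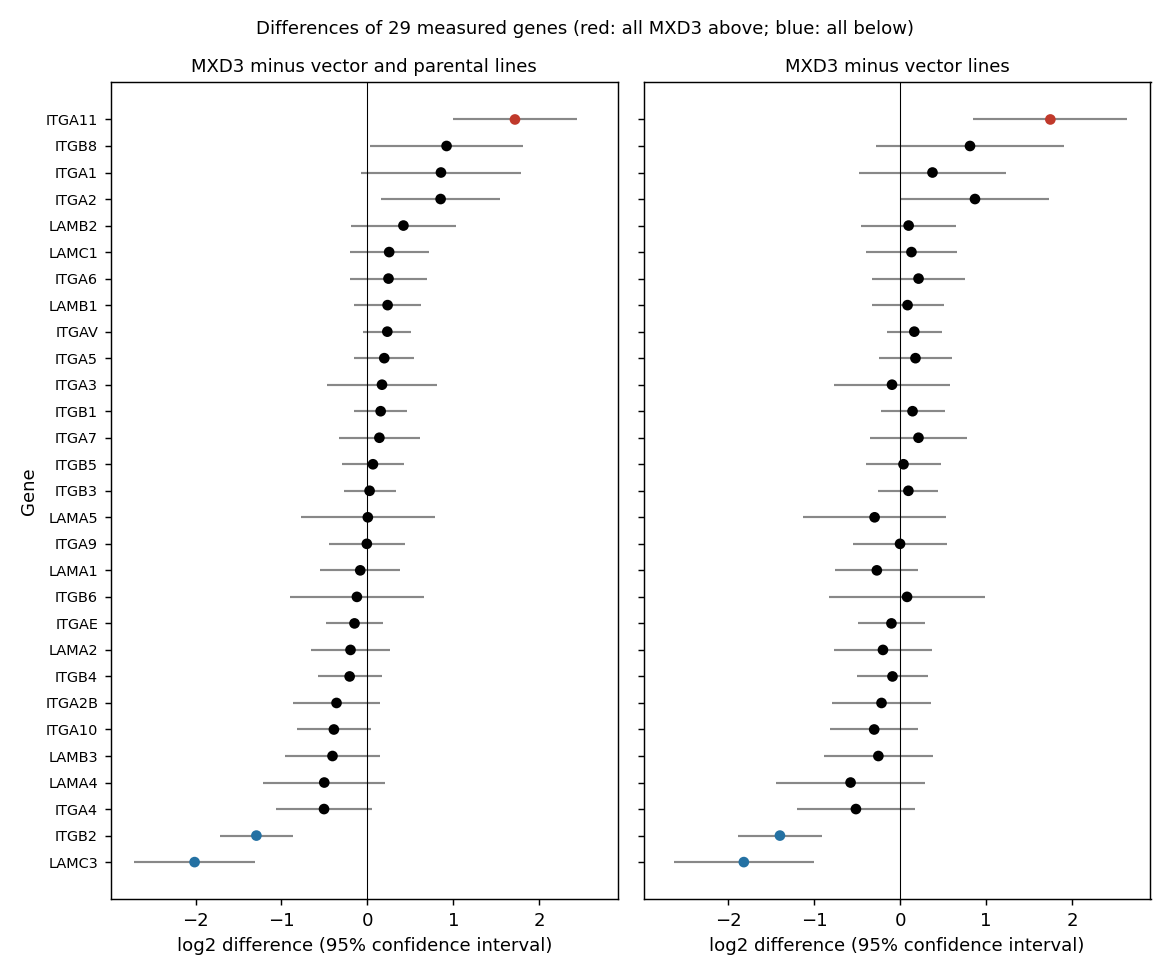
Log2 difference (points) with its 95% confidence interval (lines) for the 29 measured genes, MXD3 lines minus vector and parental lines (left) and minus vector lines (right). ITGA11 (red) lies at 1.72 and 1.75, LAMC3 at -2.01 and -1.82 and ITGB2 at -1.29 and -1.40 (both blue), and the other 26 genes, in black, had overlapping groups.

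The shared partner chains differed little. ITGB1 read 14.60, 14.84, 14.56, 14.73 and 15.01 in the MXD3 lines, against 14.66 and 14.54 in the vector lines and 14.57 in parental cells. Its log2 difference from the controls was 0.15 ± 0.14 (SE, 95% confidence interval -0.15 to 0.46, limma, adjusted p = 0.685), and 0.09 without the array labelled MXD3 line 5. A further detected probe of ITGB1 gave 0.23 ± 0.17 (SE), and its remaining 2 probes were detected on 1 array and on none. These intervals leave room for a modest change in either direction.

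ITGAV read 12.29, 12.37, 12.26, 12.52 and 12.50 in the MXD3 lines, against 12.27 and 12.18 in the vector lines and 12.02 in parental cells. Only MXD3 line 3 reached into the control range, by under 0.01 log2 units from vector line 1. The log2 difference was 0.23 ± 0.12 (SE, limma, adjusted p = 0.493). LAMC1, the gamma chain of all 6 laminins detected throughout, differed by 0.25 ± 0.20 (SE, limma, adjusted p = 0.653) in the same comparison, 0.16 without the array labelled MXD3 line 5 and 0.13 without the parental array, while LAMC3 differed by -2.01.

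Fibronectin and vitronectin receptor chains showed small differences. ITGA5, the fibronectin receptor chain, read 11.42, 11.91, 11.85, 11.85 and 12.06 in the MXD3 lines, against 11.70 and 11.57 in the vector lines and 11.58 in parental cells. MXD3 line 1 was the lowest of all 8 arrays, while the other 4 MXD3 lines lay above every control. ITGB5 and ITGB3, partners of ITGAV, read 9.90 to 10.53 and 7.81 to 8.19 in the MXD3 lines, against 10.21 to 10.32 and 7.76 to 8.06 in the controls, so the groups overlapped. ITGA4, which binds fibronectin and VCAM1, read 7.90, 7.26, 8.23, 7.23 and 7.83 in the MXD3 lines, against 8.48 and 7.93 in the vector lines and 8.18 in parental cells, and only MXD3 line 3 lay in the control range. ITGA9, a related chain that binds tenascin, read 5.68 to 6.54 in the MXD3 lines and 5.86 to 6.26 in the controls. ITGA2B, the platelet fibrinogen receptor chain, read 5.43 to 6.45 in the MXD3 lines and 6.13 to 6.61 in the controls, and ITGB6 read 6.24 to 7.90 and 7.04 to 7.77 in that order. ITGB4 read 6.01 to 6.47 in the MXD3 lines and 6.10 to 6.65 in the controls.

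Laminin alpha and beta chains overlapped between the groups. LAMA4, the alpha chain of vessel and mesenchymal basement membranes, read 10.90, 9.53, 10.28, 10.72 and 11.05 in the MXD3 lines, against 11.27 and 10.88 in the vector lines and 10.85 in parental cells. MXD3 line 2 was the lowest array for LAMA4, as it was for LAMC3, ITGB6 and others. LAMA5, the alpha chain common in adult epithelial and vessel basement membranes, read 8.98 in MXD3 line 1 and 7.94 to 8.44 in the other MXD3 lines, against 9.17 and 8.02 in vector lines 1 and 2 and 7.69 in the parental cells. LAMA1, an alpha chain of embryonic basement membranes, read 8.35 to 9.07 in the MXD3 lines and 8.41 to 9.03 in the controls. LAMB1, the beta chain paired with most alpha chains, read 11.87 to 12.44 in the MXD3 lines and 11.61 to 12.23 in the controls. LAMB3 read 6.19 to 7.33 in the MXD3 lines and 6.76 to 7.34 in the controls, and LAMA2 read 5.26 to 6.05 and 5.72 to 6.21 in the same order.

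By role, 8 of 13 measured integrin alpha chains and 4 of 7 beta chains had a higher mean in MXD3 lines than in controls. Among laminins the same held for 1 of 4 alpha, 2 of 3 beta and 1 of 2 gamma chains. Over the 29 measured genes 16 means were higher and the median log2 difference was 0.02, against 6146 of 12162 and 0.004 over all genes tested. Genes that pass the filter only through the lines where they are high, such as ITGA6, are part of these counts, so they describe the measured genes and not all 35.

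Against the vector lines alone none of the 29 passed limma's adjusted threshold (0% of all genes did), and 4 had an unadjusted p under 0.05 (13.8%, against 7.75% of all genes): ITGA11 and ITGA2 higher (3.83% of all genes), ITGB2 and LAMC3 lower (3.91%). The same 3 genes as above separated the MXD3 lines completely (10.3%, against 13.2% of all genes tested, 6.59% above and 6.62% below). This comparison shares its MXD3 and vector arrays with the previous one and is not a further test.

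Both kinds of stable line were also compared with parental cells, whose 1 array was taken to vary as the stable lines do. None of the 29 passed limma's adjusted threshold in either comparison, where 0.00822% of all genes passed in each. In the MXD3 lines 5 had an unadjusted p under 0.05 (17.2%, against 12.9% of all genes), ITGA1, LAMB2 and ITGA11 higher (7.42% of all genes) and LAMC3 and ITGB2 lower (5.47%). In the vector lines 2 did (6.9%, against 7.10% of all genes), LAMB2 and ITGA1, both higher (4.42% of all genes were higher and 2.68% lower). The parental array is shared by these comparisons.

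LAMB2, a laminin beta chain of the synapse and the kidney filter, read 8.42, 8.44, 7.64, 7.94 and 8.38 in the MXD3 lines, 8.16 and 7.97 in the vector lines and 7.11 in parental cells. The parental cells were the lowest, below all 7 stable lines. The log2 difference from the parental array was 1.06 ± 0.32 (SE, limma, adjusted p = 0.230) for the MXD3 lines and 0.96 ± 0.35 (SE, limma, adjusted p = 0.625) for the vector lines. For ITGA1 these were 1.81 ± 0.49 (SE, limma, adjusted p = 0.200) and 1.44 ± 0.55 (SE, limma, adjusted p = 0.641), the last being 0.91 without vector line 1. ITGA11 stood at 1.66 ± 0.51 (SE, limma, adjusted p = 0.248) for the MXD3 lines and -0.09 ± 0.57 (SE, limma, adjusted p = 0.997) for the vector lines. Without background correction the pairs of values were 0.63 and 0.55 for LAMB2 and 0.90 and 0.68 for ITGA1, and ITGA11 stood at 0.92 for the MXD3 lines. With 1 parental array, selection in G418, carrying a plasmid and that array itself cannot be told apart.

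**Figure D4:**
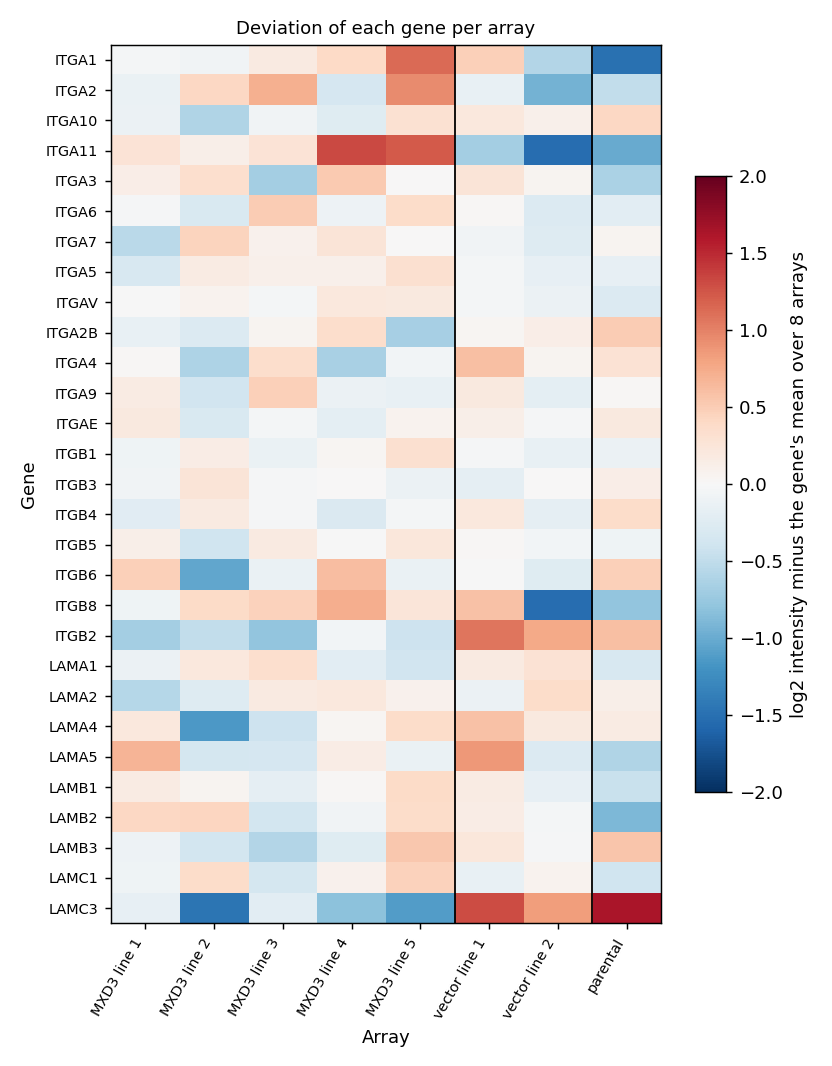
Log2 intensity of each of the 29 measured genes on each array minus the gene's mean over the 8 arrays, with MXD3 lines left, vector lines next and the parental cells right. LAMC3 and ITGB2 are red in all 3 controls, ITGA11 is blue in them, and the parental column is deepest blue for ITGA1 and reddest for LAMC3.

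These chains varied among lines of 1 kind as well as between kinds. The median range over the 8 arrays was 1.03 log2 units for the 29 measured genes, against 0.778 over all genes tested, and 4 genes (LAMC3 at 3.09, ITGA11 at 2.84, ITGA1 at 2.62 and ITGB8 at 2.26) spanned over 2 log2 units, as did 3.82% of all genes. The narrowest ranges were those of ITGB3 (0.43), ITGB1 (0.46) and ITGAV (0.49). Among the 5 MXD3 lines the SD was largest for ITGB6 (0.66), which pairs with ITGAV in epithelia, and LAMA4 (0.61). Vector lines 1 and 2 differed by 2.11 log2 units for ITGB8, 1.15 for LAMA5 and 1.06 for ITGA1, with line 1 higher each time.

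The MXD3 lines were read for the partners of these chains as well. Of 27 measured genes that link integrin tails to actin and signalling, 24 had a higher mean in MXD3 lines than in controls and the median log2 difference was 0.12, and none passed limma's adjusted threshold (smallest adjusted p = 0.288, and 3 higher and 1 lower at an unadjusted p under 0.05). Over all genes tested 6146 of 12162 means were higher, 6.13% were higher and 5.57% lower at an unadjusted p under 0.05, and 3.84% separated above the controls. ILK, the kinase-like scaffold on beta tails, differed by 0.55 ± 0.15 (SE), and TGFB1I1, a paxillin relative, by 0.83 ± 0.24 (SE, limma, adjusted p = 0.288 each). For both genes 5 of 5 MXD3 lines exceeded every control. Most of these differences were small beside their errors, and members of 1 list are not independent replicates. Against the vector lines alone, 24 of the 27 means were higher too. At an unadjusted p under 0.05 (limma), 2 were then higher (3.83% of all genes) and 0 lower (3.91%).

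Of 14 measured basement membrane partners of laminins, 10 had higher means and none passed (smallest limma adjusted p = 0.306, with 3 higher and 1 lower at an unadjusted p under 0.05, against 6.13% and 5.57% of all genes). NTN4, a laminin-related netrin, read 7.27, 6.84, 7.72, 5.71 and 6.94 in the MXD3 lines, against 5.11 and 6.197 in the vector lines and 5.36 in parental cells, and was detected in 4 of 5 MXD3 lines and 1 of 3 controls. The control mean of NTN4 lay below the lowest detected signal of each control array, so no difference is given. COL18A1, a basement membrane collagen, differed by 0.84 ± 0.26 (SE). Its groups overlapped, with MXD3 line 5 at 9.05 below vector line 1 at 9.10, and vector line 2 was the lowest array at 7.98. Of 21 measured integrin ligands other than laminins, 14 had higher means and none passed (smallest limma adjusted p = 0.288, with 4 higher and 1 lower at an unadjusted p under 0.05, against 6.13% and 5.57% of all genes). EDIL3, a ligand of ITGAV integrins, differed by 0.52 ± 0.14 (SE), and COL3A1, a fibrillar collagen, by -1.60 ± 0.57 (SE). COL3A1 read 9.69 in vector line 2, while vector line 1 at 7.70 and parental cells at 7.49 lay within the MXD3 range of 5.67 to 7.77. Against the vector lines alone, 10 basement membrane partners and 14 ligands again had higher means. At an unadjusted p under 0.05 (limma), 2 of these partners were then higher and 0 lower. For the ligands 1 was higher and 1 lower, against 3.83% and 3.91% of all genes.

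Without the array labelled MXD3 line 5, the log2 difference from the vector and parental lines was 1.57 for ITGA11, -1.92 for LAMC3 and -1.31 for ITGB2 (limma, adjusted p = 0.350 each). The 3 genes still separated completely, joined by ITGA10 and LAMB3, while 10.8% of all genes separated.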

How the data were processed

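The authors deposited a table of linear probe intensity with a detection p-value beside each value, and a series matrix of intensity values. BeadStudio is named per the submitters' processing notes, without a version. The first table showed no sign of background subtraction in its values, and the deposited series matrix values are a straight line of it on each array. Gene symbols came from the platform annotation, updated through Entrez IDs against the RefSeq table of GRCh38.p14 (19715 of 22184 probes).

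Background was corrected by normexp, whose control levels limma infers through the detection p-values, followed by quantile normalization and log2 (the neqc steps, limma 3.58.1, R 4.3.3, offset 16). Probes detected (p below 0.05) on at least 2 arrays were kept, and the probe with the highest mean stood for its gene, which gave 12162 genes. Limma's lmFit and eBayes gave the group differences, in two-sided tests whose p-values were adjusted by Benjamini-Hochberg across the whole gene table, in a fit of 2 groups (vector with parental) and one of 3. The fits were tested on simulated data. A fold is "at least" where a group was below detection, set against each array's lowest detected signal.

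The genes and lists were chosen with earlier results of these data known. All 35 genes are named, differences are given for those with an unadjusted p under 0.05 or complete separation and for ITGB1, ITGAV and LAMC1, and the 2 genes with the smallest p of each partner list are named. Differences of ITGA10 and the leukocyte markers, and the genes singled out by range or by a low array, were added after their values were seen. Markers were detected if any probe was. The pairs and trimers are textbook lists.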

Additional observations from a re-analysis of the deposited data

How the results depend on the processing

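No integrin or laminin gene passed the adjusted threshold in any of the 4 comparisons under any alternative run: no background correction, an offset of 50, median scaling, the series matrix values (floored at 1), detection on at least 4 arrays or no filter, the mean over probes, and each array left out (0 genes each). ITGA11, LAMC3 and ITGB2 kept their direction under all of these, with log2 differences from the vector and parental lines of 0.93 to 1.95, -2.22 to -1.10 and -1.87 to -0.48, the smallest sizes coming without background correction. The count of genes that separated completely was 3 to 7 when 1 array was left out: 5 without MXD3 line 3 (9.91% of all genes), 5 without the array labelled MXD3 line 5 (10.8%) and 7 without vector line 1 (19.7%). ITGB1 reversed in the vector lines against the parental array, at 0.03 by the main processing, to -0.075 with median scaling, -0.078 with the mean over probes and -0.029 without vector line 1 (0.088 without vector line 2). A detection p below 0.01, or the brightest probe alone, also gave 20 genes detected on all 8 arrays. The smallest adjusted p of any of these genes was 0.0781 (LAMC3, limma, without MXD3 line 1). MXD3 and vector lines share the numbers 1 and 2 only as names. Their deviations correlated at r = -0.309 and -0.179 for lines of the same number. With 2 vector lines the deviations are opposites, so the crossed pairs gave 0.309 and 0.179 by construction. The fit with the line number as a replicate block called 0 of the genes, as did the fit without it. Neither result can show whether the numbers pair the lines. Slides are not named in the files, so no slide block was run. Levels near background, such as ITGB2, ITGA3, ITGA6 and ITGA7, are limited by signal over background.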
